A study of Mus musculus with 33 samples.

Results

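Collagens are extracellular proteins built from triple helices, and the genes described here code for their chains. Members were taken by name: all genes of the deposited table whose symbol has the form of a collagen chain (Col, a number, a and a number), leaving out Col4a1 and Col4a2, the main chains of basement membrane. That gave 42 of the 52631 genes in the table, sorted by textbook class into 11 fibrillar, 7 network, 6 beaded, 4 transmembrane, 9 FACIT, 2 multiplexin and 3 anchoring or other members. The name alone chose them, and no measured value was part of the rule. The filter for testing, at least 1 FPKM in at least 3 libraries, was passed by 32 members. FPKM (fragments scaled by transcript length and by the library's fragment total) is scaled by length, so levels of different genes can be set side by side.

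The study followed mouse embryonic stem cells of the 129S2/SvPas strain while they differentiated, with 11 groups of 3 libraries. The stem cell group (mES, day 0, labelled control) grew with the cytokine LIF on mitomycin-inactivated mouse embryonic fibroblast feeders. Cells on gelatin received 10 µM all-trans retinoic acid alone (RA) or with 5 µM CHIR (RA/CHIR) in 15% serum for 10 days. They were then kept in 10% serum alone for 6 days and were collected on days 4, 7, 10 and 16. CHIR commonly denotes a GSK3 kinase inhibitor, an agent that switches on Wnt signalling. The labels call the RA cells ES-derived and SMC-like, and the RA/CHIR cells ES-derived and XEN-like. An untreated smooth muscle cell group (SMC) and an untreated extra-embryonic endoderm group (XEN), labelled with the same strain, were the references. The labels do not say whether the 3 libraries of a group came from separate cultures, and if they did not, each p-value reflects technical spread.

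As background, fibrillar collagens assemble into the banded fibrils that carry tension in connective tissue, and type I, in which chains from Col1a1 outnumber those from Col1a2, is the most abundant of them. Network collagens form sheets, beaded collagen (type VI) forms microfilaments around cells, and transmembrane collagens span the cell membrane once and can be shed. FACIT collagens decorate the surface of fibrils, and multiplexins carry long sugar chains in basement membranes. Smooth muscle cells of vessel walls are known makers of types I, III, V, VI and VIII, whereas endoderm of the early embryo is known for basement membrane.

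Between 11573 and 13662 genes reached 1 FPKM in a library, and the table holds no fragment counts. Steps in the low values put the depth of a library at 0.812 to 1.338 times that of another library of its group. The labels state a read length of 150 bp. Defining markers matched the labelled types in part. The 6 pluripotency genes summed to between 6998 and 8186 FPKM in mES. All 8 extra-embryonic endoderm genes averaged 1 FPKM or more in XEN (sum 4951 to 5277 FPKM) and RA/CHIR-16d (10469 to 10973 FPKM), but also in mES and RA-16d (3138 to 3212 FPKM in the latter), and 5 of 8 did in SMC (7046 to 7266 FPKM), where Foxa2 was at 0 in every library. Most of these sums was Sparc, a matrix protein gene of this list that other cells also express, with means of 4075 FPKM in XEN, 8814 FPKM in RA/CHIR-16d, 2744 FPKM in RA-16d and 7107 FPKM in SMC. All 8 smooth muscle genes averaged 1 FPKM or more in RA-16d and in SMC, although Myh11, the smooth muscle myosin heavy chain, averaged 85.8 FPKM in RA-16d and 15.6 FPKM in SMC. The 8 fibroblast markers (such as Thy1, Postn and Dcn) also did so in both, summing to 1573 to 1672 FPKM (RA-16d) and 1970 to 1990.4 FPKM (SMC). In the RA/CHIR-16d libraries their sum was 83.2 to 91.5 FPKM, and in XEN it was 0.315 to 0.578 FPKM, where Fap and Twist2 were at 0 in every library. The part of fibroblast-type cells in the collagen levels was not tested, and in bulk samples fewer cells of a type and less RNA per cell cannot be told apart.

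Promoter windows are shown for the members with the highest group mean of the 4 classes compared, and for Col8a2, which was added after its values were seen because it differed from its partner Col8a1. Each window runs from 250 bases before to 50 bases after the RefSeq start of transcription (assembly GRCm38.p6), 5′ to 3′ on the strand of the gene, and 33 of the 42 members had one. Capitals mark matches on either strand to the CCAAT box, to the GC box GGGCGG, to the TATA box written TATAAA, to the nuclear receptor element AGGTCA and to the TCF/LEF type element CTTTGAT, and overlapping matches were allowed. The fibrillar member is Col1a2 (chr6:4505368-4505667, + strand), the network members are Col8a1 (chr16:57754688-57754987, - strand) and Col8a2 (chr4:126286544-126286843, + strand), the beaded member is Col6a1 (chr10:76725995-76726294, - strand), and the transmembrane member is Col13a1 (chr10:61979059-61979358, - strand).
Col1a2: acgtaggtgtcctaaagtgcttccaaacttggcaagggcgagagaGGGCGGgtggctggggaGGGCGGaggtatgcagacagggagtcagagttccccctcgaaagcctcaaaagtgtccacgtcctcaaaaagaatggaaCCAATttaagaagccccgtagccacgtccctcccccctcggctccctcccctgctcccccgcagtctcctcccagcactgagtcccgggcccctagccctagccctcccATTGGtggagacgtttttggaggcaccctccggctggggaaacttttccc
Col8a1: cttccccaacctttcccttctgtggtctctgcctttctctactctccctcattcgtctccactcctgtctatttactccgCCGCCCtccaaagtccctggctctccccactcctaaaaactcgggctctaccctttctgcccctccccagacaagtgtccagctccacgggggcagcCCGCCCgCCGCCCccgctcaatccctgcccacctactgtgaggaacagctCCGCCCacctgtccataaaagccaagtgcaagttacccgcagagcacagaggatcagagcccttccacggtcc
Col8a2: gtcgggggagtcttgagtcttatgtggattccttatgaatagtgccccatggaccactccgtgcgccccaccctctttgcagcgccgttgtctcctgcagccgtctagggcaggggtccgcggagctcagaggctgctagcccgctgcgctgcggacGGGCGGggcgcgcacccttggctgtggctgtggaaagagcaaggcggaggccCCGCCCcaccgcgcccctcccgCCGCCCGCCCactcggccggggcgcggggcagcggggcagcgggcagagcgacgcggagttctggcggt
Col6a1: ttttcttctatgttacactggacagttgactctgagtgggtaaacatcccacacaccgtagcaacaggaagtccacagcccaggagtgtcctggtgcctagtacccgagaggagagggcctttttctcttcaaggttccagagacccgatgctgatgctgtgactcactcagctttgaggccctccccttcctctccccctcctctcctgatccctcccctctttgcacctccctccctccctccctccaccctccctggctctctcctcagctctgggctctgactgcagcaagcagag
Col13a1: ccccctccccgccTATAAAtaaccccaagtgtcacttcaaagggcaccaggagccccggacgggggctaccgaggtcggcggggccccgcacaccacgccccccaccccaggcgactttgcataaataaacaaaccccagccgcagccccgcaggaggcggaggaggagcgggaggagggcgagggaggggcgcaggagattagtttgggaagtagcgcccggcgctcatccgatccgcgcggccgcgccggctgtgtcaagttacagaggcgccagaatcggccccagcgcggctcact

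A match is a run of letters and not a shown binding site. Col1a2 held 2 CCAAT and 2 GGGCGG matches, both type VIII windows held 4 GGGCGG matches each, Col13a1 held 1 TATAAA match, and Col6a1 held none of the 5 motifs. No AGGTCA or CTTTGAT match lay in these 5 windows, which says only that these letters are absent there. Over the 33 member windows, GGGCGG was found in 20, CCAAT in 10, AGGTCA in 8, TATAAA in 5 and CTTTGAT in 1. Among all 32851 windows of the table, the shares were 35.7% for GGGCGG, 37.4% for CCAAT, 16.3% for AGGTCA, 13.6% for TATAAA and 3.73% for CTTTGAT. Several members are neighbours in the annotation (GENCODE M21, GRCm38). Col4a5 and Col4a6 lie head to head on chromosome X with 1308 bp between them, as do Col4a3 and Col4a4 on chromosome 1 with 71 bp. Col3a1 and Col5a2 lie tail to tail on chromosome 1, 24614 bp apart, and Col6a1 and Col6a2 lie on the same strand of chromosome 10, 85161 bp apart.

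Summed over the 42 members, collagen was at 110.0 ± 4.91 FPKM in mES (SD, n = 3 for this and all later group means). It was 127 ± 7.21 FPKM in RA-4d, 300.0 ± 8.87 FPKM in RA-7d, 542 ± 5.80 FPKM in RA-10d and 2856 ± 527 FPKM in RA-16d. The RA/CHIR arm was at 123 ± 7.46, 91.4 ± 4.81, 87.0 ± 2.23 and 512 ± 20.6 FPKM on the same days. SMC held 13359 ± 173 FPKM and XEN 61.6 ± 4.19 FPKM. From day 4 to day 10 the mean sum was thus higher at each later sampling in the RA arm and lower at each later one in the RA/CHIR arm. In RA/CHIR the libraries of day 7 (85.9 to 94.8 FPKM) and day 10 (84.6 to 89.0 FPKM) overlapped. Both arms were higher on day 16 than on day 10. The RA-16d libraries were the most spread, from 2332 to 3386 FPKM, and replicate 2 held the highest value of that group for Col1a1, Col1a2, Col3a1, Col5a1 and Col6a1.

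**Figure D1:**
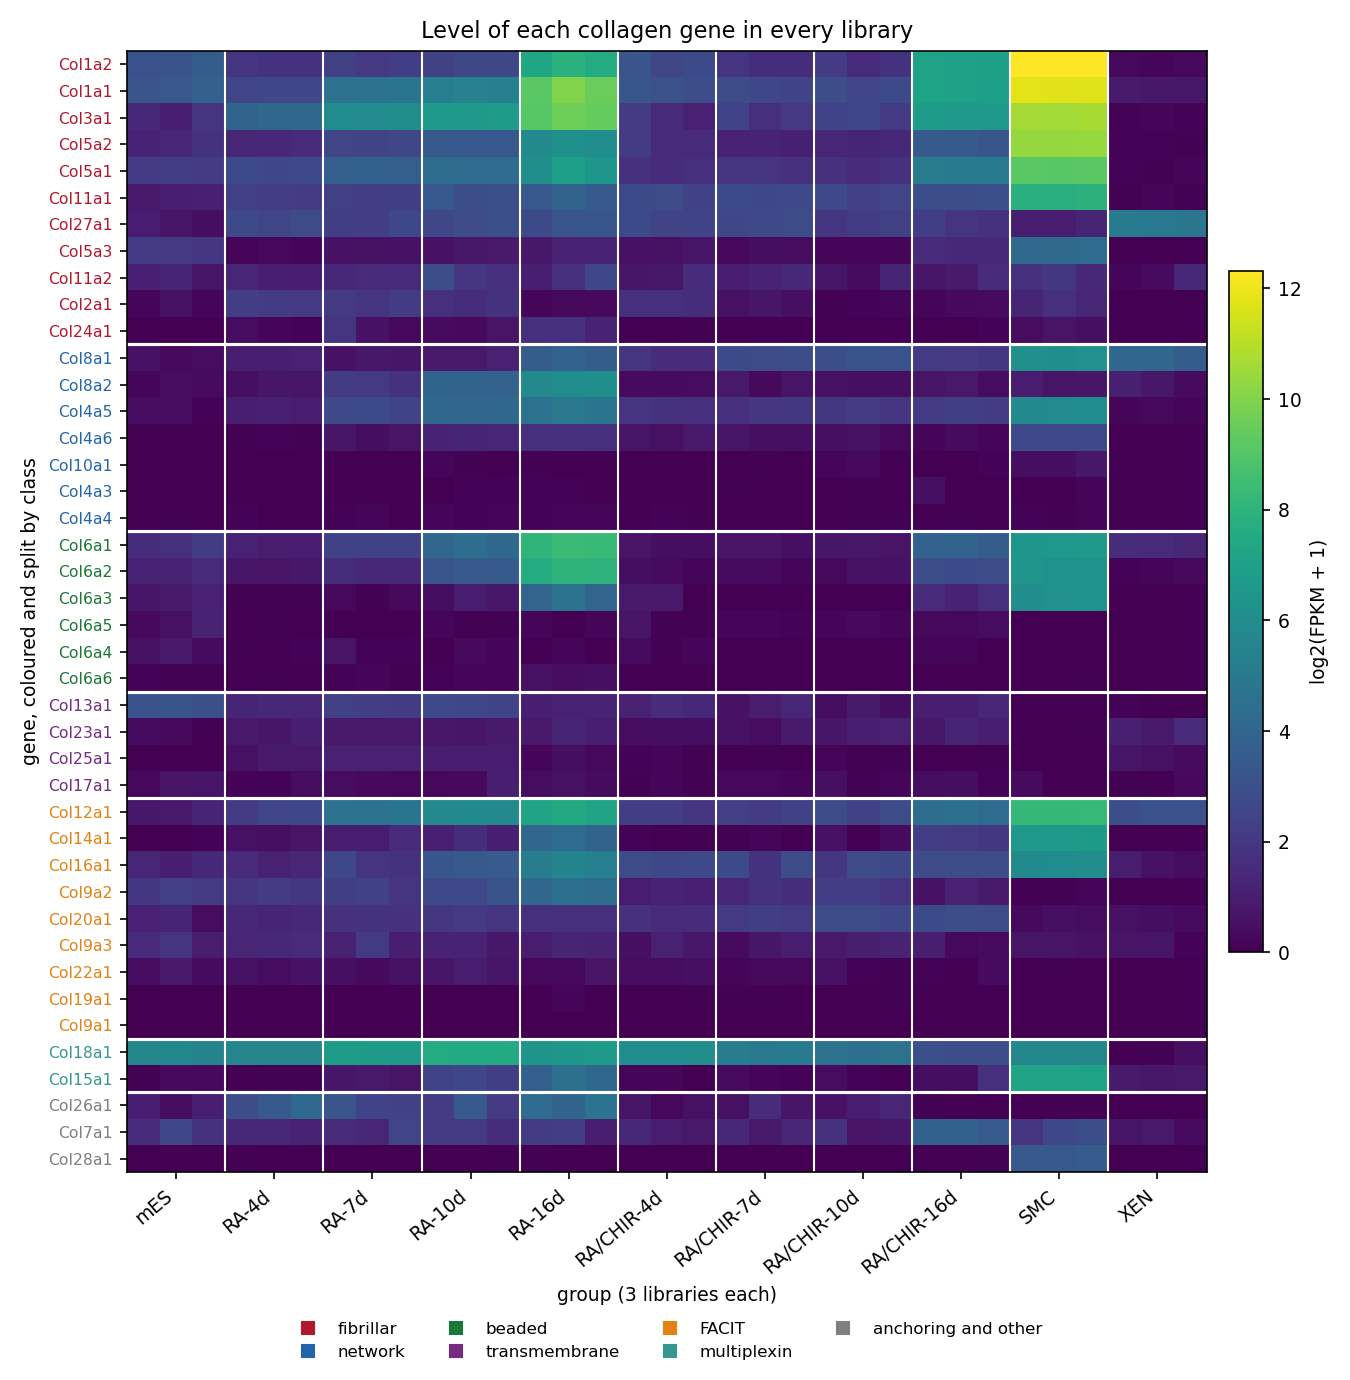
Level of all 42 collagen genes as log2(FPKM + 1), one column per library (3 per group) and one row per gene, with rows split and coloured by class. The SMC columns are brightest for the fibrillar genes Col1a1, Col1a2 and Col3a1, Col18a1 is the brightest row of mES and of both arms up to day 10, and Col27a1 is the brightest row of XEN.

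The leading gene changed with the stage. Col18a1, a multiplexin of basement membranes from which the fragment endostatin is cut, held the largest share of collagen FPKM in mES (44.6% ± 4.11) and on days 4, 7 and 10 of both arms. On day 16, Col1a1 led in RA (26.7% ± 2.83), and Col1a2 (25.7% ± 0.427) and Col1a1 (25.5% ± 0.535) stood together at the top in RA/CHIR. In SMC the lead was held by Col1a2 with 37.9% ± 0.0698. XEN was led by Col27a1 with 49.1% ± 0.834, followed by Col8a1 with 23.2% ± 2.54 and Col12a1 with 11.9% ± 1.46. Of the 42 members, 17 had their highest group mean in SMC, 8 in RA-16d, 4 in RA-10d, 3 each in mES and RA/CHIR-16d, 2 each in RA-7d and XEN, and 1 each in RA-4d, RA/CHIR-4d and RA/CHIR-10d. Among the 32 tested members alone, 16 had it in SMC, 6 in RA-16d, 2 each in RA-7d, RA-10d, RA/CHIR-16d and XEN, 1 each in mES and RA-4d, and none in RA/CHIR-4d, RA/CHIR-7d or RA/CHIR-10d. The shares of all tested genes by highest group were not computed, so these counts do not show a trait particular to collagens.

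The classes shared the total unequally. Fibrillar genes made up 63.4% of collagen FPKM in RA-16d, 82.6% in RA/CHIR-16d, 92.1% in SMC, 52.5% in XEN and between 28.5% and 41.5% in mES and on days 4 to 10. Beaded genes took 19.8% of RA-16d, against 4.16% of RA/CHIR-16d and 1.86% of SMC. Network genes took 13.3% in RA/CHIR-10d and 24.6% in XEN, where Col8a1 made up nearly the whole class, and 6.13% or less in mES, the RA arm and SMC. Transmembrane genes took 7.59% in mES and 0.00103% in SMC. Their summed level stood at 8.35 ± 0.682 FPKM in mES, 7.30 ± 0.324 FPKM in RA-10d, 2.84 ± 0.542 FPKM in RA-16d, 2.54 ± 0.367 FPKM in RA/CHIR-16d, 1.85 ± 0.475 FPKM in XEN and 0.139 ± 0.174 FPKM in SMC.

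**Figure D2:**
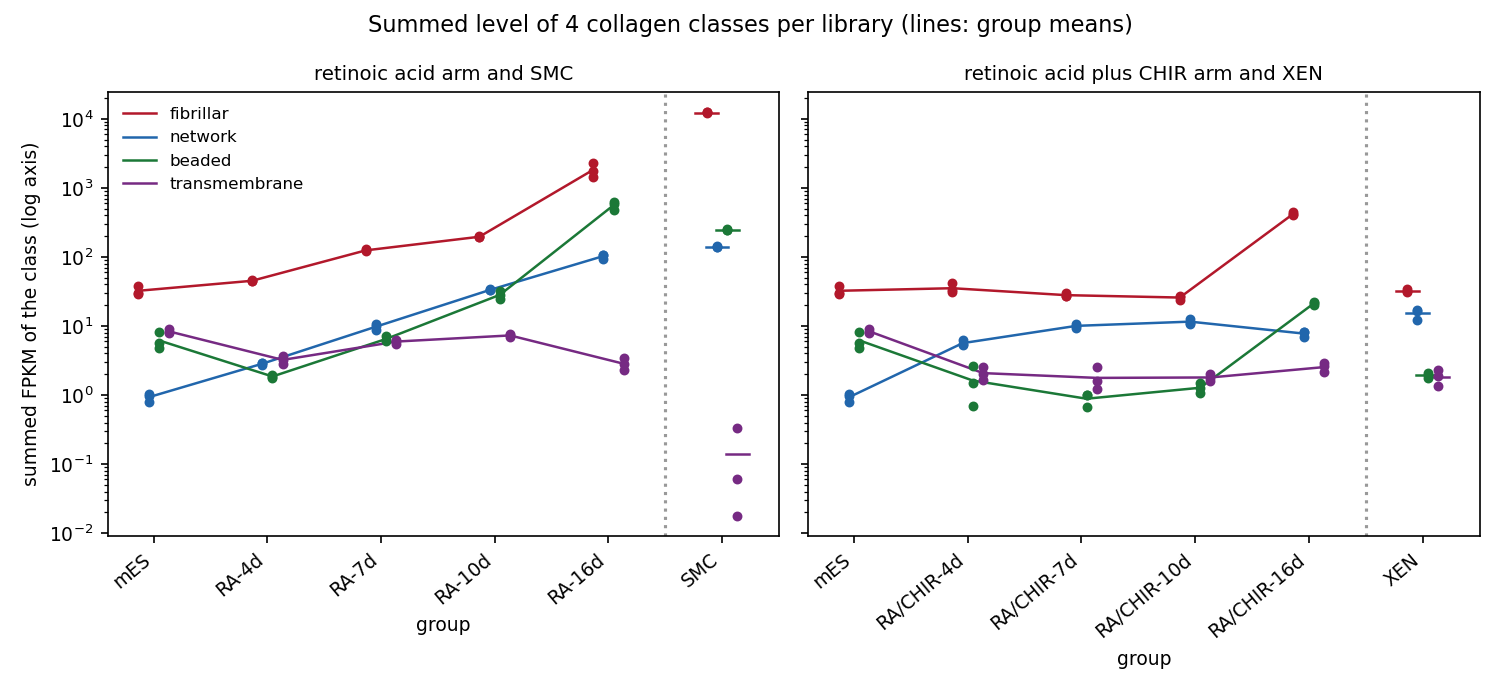
Summed FPKM of the fibrillar, network, beaded and transmembrane genes per library on a log axis, with the RA arm and SMC on the left, the RA/CHIR arm and XEN on the right and mES in both; points are libraries, and lines and bars are group means. The fibrillar sum reaches 1820 FPKM in RA-16d and 422 FPKM in RA/CHIR-16d, the beaded sum 560 and 21.3 FPKM, and the transmembrane sum is lowest in SMC.

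Type I collagen set the scale of the fibrillar class. Col1a1 (chr11:94936224-94953042) stood at 38.8, 43.1 and 40.2 FPKM in the 3 RA-10d libraries and at 572, 1014 and 734 FPKM in RA-16d. In RA/CHIR it was at 6.53, 4.99 and 5.91 FPKM on day 10 and at 139, 130.3 and 123 FPKM on day 16. SMC held 3621, 3443 and 3397 FPKM, XEN 0.868, 0.729 and 0.747 FPKM, and mES 8.43, 9.01 and 12.8 FPKM. All RA libraries thus lay above all RA/CHIR libraries on both days, while day 16 lay far above day 10 in both arms. On the log2(FPKM + 1) scale used for all tests, the difference RA/CHIR minus RA was -2.62 ± 0.14 (standard error) on day 10 (adjusted p = 2.0e-14, limma) and -2.52 ± 0.14 on day 16 (adjusted p = 2.8e-14). A gene is said to be called, higher or lower when its adjusted p is under 0.05 and its log2 difference is at least 1 in size. Libraries of the groups compared did not overlap for any called member, except for Col11a2 in XEN against SMC. With 3 libraries per group this largely follows from the rule for a call and adds no support. The share over all genes was not computed.

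Col1a2 (chr6:4504814-4541544), the partner chain, took a different course. It stood at 4.47, 5.10 and 5.12 FPKM in RA-10d and at 152, 236 and 191 FPKM in RA-16d. RA/CHIR held 3.46, 1.86 and 2.54 FPKM on day 10 and 136, 130.3 and 129 FPKM on day 16. SMC was far above, at 5117, 4986 and 5075 FPKM, and XEN was at 0.186, 0.147 and 0.196 FPKM. The arms were close for this chain: the day 16 difference was -0.53 ± 0.16 (adjusted p = 0.0065), under the size needed for a call, although the libraries did not overlap. On day 4 it was the other way round, with 8.51, 4.91 and 5.77 FPKM in RA/CHIR and 2.66, 2.54 and 2.48 FPKM in RA (log2 difference 1.03 ± 0.16, adjusted p = 1.0e-05). That call rests on replicate 1 of RA/CHIR-4d, without which the difference was 0.83.

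The ratio of Col1a1 to Col1a2 followed from these courses and is given as a description. It was 1.13 ± 0.0260 in mES, 2.02 ± 0.119 in RA-4d, 6.88 ± 1.0 in RA-7d, 8.33 ± 0.433 in RA-10d and 3.96 ± 0.287 in RA-16d. RA/CHIR libraries gave 1.22 ± 0.255, 2.35 ± 0.146, 2.30 ± 0.397 and 0.992 ± 0.0357 on days 4, 7, 10 and 16. SMC gave 0.689 ± 0.0192. Each RA library of days 7, 10 and 16 had more Col1a1 per Col1a2 than any RA/CHIR library of any day. In the mES libraries the chains averaged 10.1 and 8.97 FPKM beside fibroblast markers that summed to 23.1 to 40.6 FPKM, and the part of feeder cells in these levels was not tested.

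**Figure D3:**
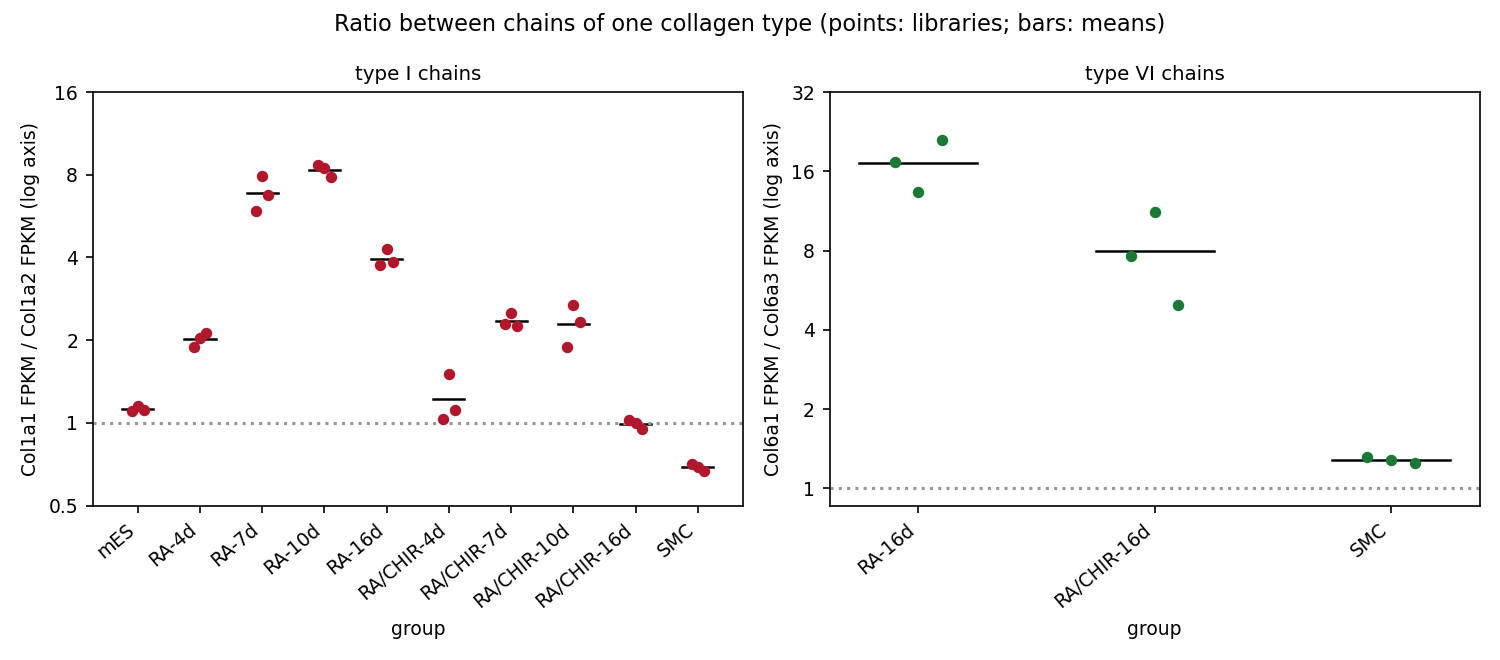
Ratio of Col1a1 to Col1a2 FPKM in 10 groups (left) and of Col6a1 to Col6a3 FPKM in the 3 groups where both chains were above 1 FPKM in every library (right), on log axes; points are libraries and bars are group means. The type I ratio peaks at 8.33 in RA-10d and is 0.992 in RA/CHIR-16d, and the type VI ratio runs from 17.3 (RA-16d) over 7.93 (RA/CHIR-16d) to 1.28 (SMC).

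Col3a1, the chain of type III collagen of vessel walls and other soft tissue, was 1 of 3 members, with Col5a1 and Col26a1, that were lower with CHIR on all 4 days. It stood at 14.9, 16.1 and 17.0 FPKM in RA-4d against 3.45, 1.85 and 1.21 FPKM in RA/CHIR-4d. On day 10 the values were 96.6, 97.0 and 107 FPKM against 4.59, 5.20 and 3.43 FPKM. By day 16 they were 555, 782 and 676 FPKM against 109, 102 and 99.5 FPKM. RA was above RA/CHIR in every library of each day, with log2 differences of -2.48 ± 0.20, -3.94 ± 0.20, -4.24 ± 0.20 and -2.67 ± 0.20 on days 4, 7, 10 and 16 (adjusted p = 8.6e-11, 5.3e-15, 6.3e-16 and 5.6e-12). SMC held 1592, 1588 and 1659 FPKM and XEN 0.0770, 0.166 and 0.0969 FPKM. In the RA arm Col3a1 stood above Col1a1 on days 4, 7 and 10, with ratios of 3.10 ± 0.137, 2.50 ± 0.0605 and 2.47 ± 0.208, and below it on day 16 (0.887 ± 0.103) and in SMC (0.463 ± 0.0244).

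Type V chains limit the diameter of type I fibrils. Col5a1 stood at 19.6, 19.0 and 18.9 FPKM in RA-10d, 68.4, 124 and 88.4 FPKM in RA-16d, and 568, 551 and 569 FPKM in SMC. In RA/CHIR it was at 2.38, 1.85 and 2.41 FPKM on day 10 and at 35.4, 34.3 and 33.4 FPKM on day 16. Its difference between the arms was -1.04 ± 0.12 on day 4, -1.92 ± 0.12 on day 7, -2.66 ± 0.12 on day 10 and -1.38 ± 0.12 on day 16, and without replicate 2 of RA/CHIR-4d the day 4 value was -0.98 and no longer called. Col5a2 was at 56.6, 70.7 and 65.7 FPKM in RA-16d and at 10.1, 10.2 and 8.79 FPKM in RA/CHIR-16d, with 1309, 1305 and 1380.2 FPKM in SMC. Its day 16 difference was -2.61 ± 0.13 (adjusted p = 2.7e-15). Per Col5a2, Col5a1 was therefore higher in RA/CHIR-16d (ratio 3.55 ± 0.225) than in RA-16d (1.43 ± 0.281) or SMC (0.423 ± 0.0106), and the libraries of the 3 groups did not overlap in it. Col5a3, the third type V chain, had its highest mean in SMC at 18.0 FPKM, and stood at 1.08 FPKM in RA-16d and 1.72 FPKM in RA/CHIR-16d, a difference that was not called.

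The other fibrillar genes did not share one course. Col11a1, which nucleates cartilage fibrils and also occurs outside cartilage, was at 227, 217 and 239.5 FPKM in SMC against 9.34, 14 and 9.81 FPKM in RA-16d and 6.80, 6.71 and 7.00 FPKM in RA/CHIR-16d. Its arm difference was not called on any day (0.45, 0.44, -0.58 and -0.60). Col2a1, the main cartilage chain, was highest in RA-4d at a mean of 3.49 FPKM and was at 2.25 FPKM in RA-10d, 0.0861 FPKM in RA/CHIR-10d and 0.192 FPKM in RA-16d. Its arm difference was called on days 7 and 10 (-1.45 ± 0.10 and -1.58 ± 0.10) and was 0.03 ± 0.10 on day 16, and with a pseudocount of 0.1 in place of 1 the day 10 value was -3.67. Col24a1 stood at no more than 2.77 FPKM in any library and was lower with CHIR on day 16 (-1.45 ± 0.23, or -3.80 with that pseudocount), where the RA/CHIR libraries held 0, 0.0337 and 0.103 FPKM. It reached 1 FPKM in 4 libraries, among them all of RA-16d. It was thus tested largely through the group where it was highest, which limits its calls in comparisons with RA-16d.

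Col27a1, a fibrillar chain known from cartilage, was the one fibrillar gene with its highest level in XEN. XEN held 32.5, 30.1 and 28.0 FPKM, SMC 1.05, 0.979 and 1.44 FPKM, and mES 0.896, 0.638 and 0.378 FPKM. In the arms it was at 5.53, 4.98 and 5.99 FPKM in RA-4d, 5.82, 4.84 and 4.86 FPKM in RA/CHIR-4d, 5.78, 8.42 and 8.88 FPKM in RA-16d and 3.93, 2.61 and 2.33 FPKM in RA/CHIR-16d. XEN was above SMC by 3.86 ± 0.16 (adjusted p = 1.5e-17). RA/CHIR-16d, of the arm labelled XEN-like, was lower than XEN, with a log2 difference of -3.0 ± 0.16, and lower than RA-16d, with one of -1.14 ± 0.16 (adjusted p = 7.7e-15 and 9.3e-07). Col11a2 ranged from 0.160 to 6.89 FPKM over all libraries with wide spread inside groups. Its RA-10d libraries held 6.89, 2.84 and 2.15 FPKM, and its call in XEN against SMC (-1.04 ± 0.36) was lost without SMC replicate 2 (-0.90), without XEN replicate 1 (-0.81) or 2 (-0.90), and under quantile normalization (-0.73). Fitting only the XEN and SMC libraries gave an adjusted p of 0.062.

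Among network genes, the type VIII chains, which form hexagonal lattices under endothelia and in vessel walls, parted from each other. Col8a2 stood at 3.63, 3.11 and 2.54 FPKM in RA-7d, 14.4, 14.6 and 13.6 FPKM in RA-10d and 54.5, 62.5 and 68.7 FPKM in RA-16d. In RA/CHIR it ranged from 0.251 to 0.817 FPKM over the 12 libraries of all days. SMC held 0.962, 0.619 and 0.655 FPKM and XEN 1.14, 0.737 and 0.274 FPKM. Levels above 2 FPKM were thus found only in the RA arm from day 7 on. The arm difference was -0.26 ± 0.15 on day 4 (not called), -1.41 ± 0.15 on day 7, -3.42 ± 0.15 on day 10 and -5.33 ± 0.15 on day 16 (adjusted p = 1.2e-20), and RA-16d was above SMC by 5.17 ± 0.15 (adjusted p = 1.1e-20).

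Col8a1, whose window is shown above, had its highest level in SMC at 72.2, 70.5 and 75.2 FPKM, followed by XEN at 15.6, 15.8 and 11.6 FPKM, which overlapped RA-16d. RA libraries held 0.791, 0.808 and 1.21 FPKM on day 10 and 11.6, 13.7 and 11.5 FPKM on day 16. RA/CHIR libraries held 6.75, 8.28 and 7.54 FPKM on day 10 and 3.59, 3.15 and 2.94 FPKM on day 16. The order of the arms was therefore reversed between the days. The log2 difference RA/CHIR minus RA was 0.58 ± 0.11 on day 4 (not called), 2.14 ± 0.11 on day 7, 2.14 ± 0.11 on day 10 and -1.65 ± 0.11 on day 16 (adjusted p = 1.8e-14, 1.0e-14 and 1.5e-12 for the called days). It was the only member called higher with CHIR on days 7 and 10.

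The minor type IV chains are parts of specialised basement membranes, and Col4a5 with Col4a6 occurs around smooth muscle. Col4a5 (chrX:141475385-141689234) stood at 17.0, 15.9 and 16.3 FPKM in RA-10d, 23.7, 29.2 and 25.5 FPKM in RA-16d and 58.9, 61.5 and 62.8 FPKM in SMC. RA/CHIR held 3.00, 3.36 and 2.84 FPKM on day 10 and 3.62, 3.81 and 3.34 FPKM on day 16, and XEN 0.131, 0.200 and 0.173 FPKM. The differences between the arms were -2.10 ± 0.09 on day 10 and -2.56 ± 0.09 on day 16 (adjusted p = 1.7e-16 and 1.6e-18). Its head to head neighbour Col4a6 was lower throughout, with means of 2.24 FPKM in RA-16d, 0.194 FPKM in RA/CHIR-16d and 5.54 FPKM in SMC. The ratio of Col4a5 to Col4a6 was 11.8 ± 1.23 in RA-10d, 11.7 ± 0.771 in RA-16d and 11 ± 0.30 in SMC, so that the groups overlapped in the ratio while the level of Col4a5 differed. Col4a6 was lower with CHIR on day 16 (-1.44 ± 0.09, adjusted p = 7.8e-14), and the value was -3.03 with a pseudocount of 0.1.

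In type VI collagen, the beaded class, Col6a2 and Col6a1 had the largest day 16 arm differences of all members after Col8a2 on the log2(FPKM + 1) scale, whereas with a pseudocount of 0.1 that of Col26a1 (-7.36) was beyond all 3. Col6a1 stood at 15.5, 20.6 and 17.1 FPKM in RA-10d and 262, 331 and 319.5 FPKM in RA-16d. RA/CHIR libraries held 0.675, 0.746 and 0.581 FPKM on day 10 and 13.5, 14.1 and 11.3 FPKM on day 16, and SMC held 89.2, 93.7 and 97.1 FPKM. RA-16d thus exceeded even SMC, by 1.69 ± 0.12 (adjusted p = 3.0e-12). Its arm difference was -0.52 ± 0.12 on day 4 (not called), -1.78 ± 0.12 on day 7, -3.48 ± 0.12 on day 10 and -4.45 ± 0.12 on day 16 (adjusted p = 6.3e-21). XEN was at 2.0, 1.78 and 1.51 FPKM.

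Col6a2, the neighbouring gene and an obligate partner in the type VI monomer, ran in parallel. It stood at 8.65, 9.70 and 10.1 FPKM in RA-10d, 200.0, 262 and 249 FPKM in RA-16d and 84.9, 79.9 and 79.4 FPKM in SMC. RA/CHIR-16d held 6.44, 5.92 and 6.18 FPKM, with an arm difference of -5.04 ± 0.11 (adjusted p = 2.6e-23). Col6a3, the third main chain, was at 15.1, 24.9 and 15.1 FPKM in RA-16d, 1.77, 1.26 and 2.29 FPKM in RA/CHIR-16d and 68.1, 73.3 and 77.8 FPKM in SMC. In contrast to its partners it was therefore lower in RA-16d than in SMC (-1.97 ± 0.19, adjusted p = 6.0e-10). The ratio of Col6a1 to Col6a3 was 17.3 ± 3.91 (RA-16d), 7.93 ± 3.15 (RA/CHIR-16d) and 1.28 ± 0.0307 (SMC), and that of Col6a1 to Col6a2 was, in the same order, 1.29 ± 0.0229, 2.11 ± 0.271 and 1.15 ± 0.0883. Col6a4, Col6a5 and Col6a6, the remaining beaded genes, did not pass the filter and stood at no more than 1.29 FPKM in any library.

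The transmembrane class differed in where it was highest. Col13a1, found at neuromuscular junctions and other cell contacts, had its highest level in mES, at 7.65, 8.30 and 7.12 FPKM, and was listed at 0 in all SMC libraries. It was at 5.61, 5.13 and 4.5 FPKM in RA-10d and 1.02, 1.19 and 1.32 FPKM in RA-16d, and at 0.362, 0.835 and 0.362 FPKM in RA/CHIR-10d and 1.06, 1.07 and 1.46 FPKM in RA/CHIR-16d. The arms differed on day 7 (-1.26 ± 0.14) and day 10 (-2.01 ± 0.14, adjusted p = 2.1e-12, or -3.14 with a pseudocount of 0.1), and on day 16 the difference was 0.01 ± 0.14 with overlapping libraries. Col23a1 had group means of 0.0275 FPKM in SMC, 1.26 FPKM in XEN and 0.185 to 1.07 FPKM elsewhere. Its call as higher in XEN than SMC (1.12 ± 0.14, or 3.36 with a pseudocount of 0.1) was lost without XEN replicate 3 (0.96). Col25a1, expressed mainly by neurons, was highest in RA-7d at 1.17 FPKM and lower with CHIR on day 7 (-1.08 ± 0.09), a call lost under quantile normalization (-0.99). Col17a1, the hemidesmosome collagen of epithelia, did not pass the filter and reached 1.03 FPKM in 1 library.

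**Figure D4:**
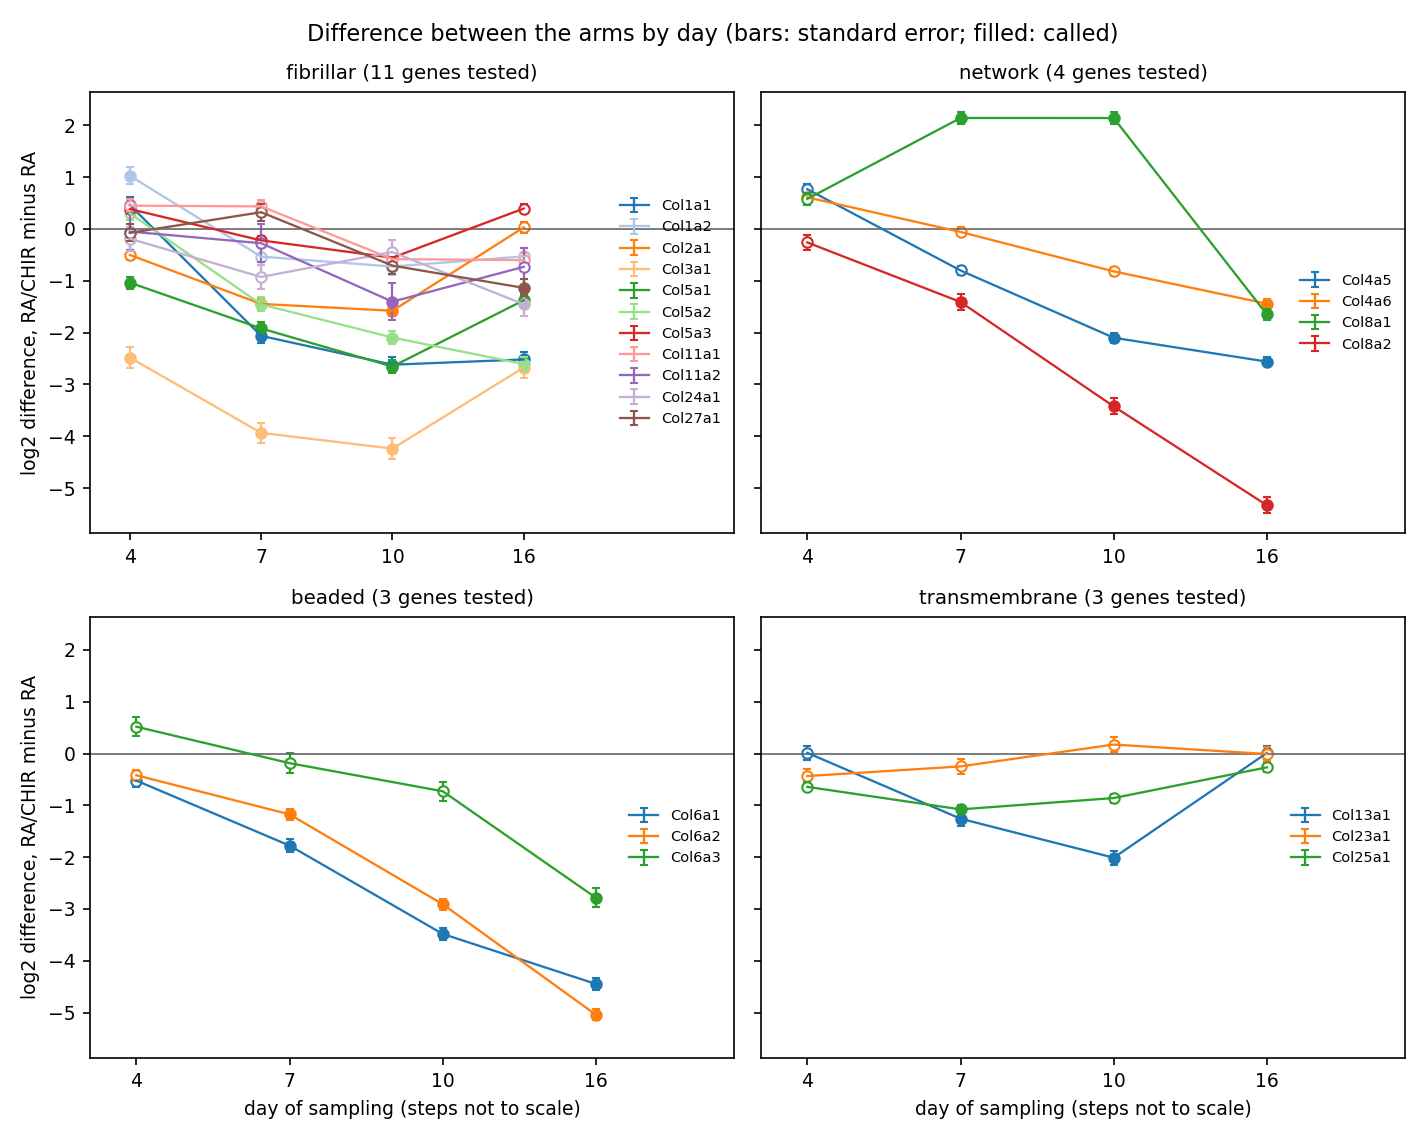
Difference RA/CHIR minus RA on the log2(FPKM + 1) scale (vertical axis) on days 4, 7, 10 and 16 (horizontal axis, steps not to scale) for the tested fibrillar, network, beaded and transmembrane genes; bars are standard errors and filled points are called differences. Beaded genes and Col8a2 move further down with each day, Col8a1 is above 0 up to day 10 and below it on day 16, and no transmembrane gene is called on day 16.

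FACIT genes were led by Col12a1, a chain of tendon, muscle and vessel fibrils. It stood at 55.2, 56.3 and 54.9 FPKM in RA-10d, 147, 181 and 147 FPKM in RA-16d and 293, 291 and 307 FPKM in SMC. RA/CHIR libraries held 6.25, 4.27 and 6.29 FPKM on day 10 and 19.9, 21.5 and 18.9 FPKM on day 16, with arm differences of -3.11 ± 0.14 and -2.91 ± 0.14 (adjusted p = 1.5e-16 and 3.6e-16). Col14a1 was at 15.5, 18.9 and 14.3 FPKM in RA-16d, 3.79, 3.44 and 3.02 FPKM in RA/CHIR-16d and 95.2, 98.0 and 105 FPKM in SMC, an arm difference of -1.96 ± 0.15. Its day 7 call (-1.06) was lost without replicate 3 of RA-7d (-0.88) and under quantile normalization (-0.97).

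Col16a1, a fibril-associated chain made by many mesenchymal cells, was first higher and later lower with CHIR. On day 4 it stood at 5.97, 5.43 and 5.51 FPKM in RA/CHIR against 1.89, 1.17 and 1.5 FPKM in RA, a difference of 1.41 ± 0.23 (adjusted p = 1.2e-05). By day 16 it was at 6.32, 6.34 and 6.52 FPKM in RA/CHIR against 36.9, 46.1 and 39.5 FPKM in RA (-2.49 ± 0.23, adjusted p = 3.1e-10). The level in RA/CHIR thus stayed between 2.53 and 6.52 FPKM on all days, and SMC held 56.1, 63.6 and 65.4 FPKM. Col9a2, a type IX chain of cartilage, had its highest mean in RA-16d (18.9 FPKM) and stood at 0.848 FPKM in RA/CHIR-16d (-3.43 ± 0.17), while its partners did not follow: Col9a1 was at 0 in all libraries except the 3 of RA/CHIR-4d, with at most 0.0287 FPKM, and Col9a3 was not called between the arms on any day. Col20a1 was the FACIT gene higher with CHIR on day 16, at 5.80, 6.72 and 6.10 FPKM against 2.11, 2.12 and 2.21 FPKM (1.19 ± 0.14, adjusted p = 2.0e-08). Col19a1 and Col22a1 did not pass the filter.

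The multiplexins, both known from basement membranes, had different courses. Col18a1 stood at 50.2, 52.4 and 44.3 FPKM in mES, 47.3, 47.9 and 47.0 FPKM in RA-4d, 188, 186 and 184 FPKM in RA-10d and 82.2, 90.3 and 105 FPKM in RA-16d. With CHIR it was at 63.0, 63.1 and 64.0 FPKM on day 4, 36.1, 30.3 and 32.9 FPKM on day 7, 24.1, 21.6 and 23.6 FPKM on day 10 and 6.99, 6.59 and 6.45 FPKM on day 16. XEN held 0.0194, 0.0524 and 0.418 FPKM. The RA/CHIR levels were thus lower at each later sampling, without overlap, and the arm difference was 0.41 ± 0.09 on day 4 (not called), -1.66 ± 0.09, -2.96 ± 0.09 and -3.60 ± 0.09 on days 7, 10 and 16 (adjusted p = 1.1e-21 on day 16). Col15a1 was at 4.67, 5.24 and 3.86 FPKM in RA-10d, 12.7, 22.3 and 16.5 FPKM in RA-16d, 145, 144 and 139 FPKM in SMC, and 0.384, 0.374 and 2.17 FPKM in RA/CHIR-16d, where replicate 3 lay apart (arm difference -3.28 ± 0.21).

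The remaining genes had their highest means in different groups. Col7a1, the anchoring fibril collagen of the skin basement membrane, was highest in RA/CHIR-16d at 13.1, 13.1 and 10.6 FPKM, against 3.44, 3.75 and 1.05 FPKM in RA-16d and 2.32, 0.557 and 0.714 FPKM in RA/CHIR-10d. Its day 16 arm difference was 1.91 ± 0.35 (adjusted p = 3.2e-05). Col26a1, described in testis and ovary, was at 19.1, 14.1 and 25.0 FPKM in RA-16d and at 0.0554, 0 and 0 FPKM in RA/CHIR-16d (-4.29 ± 0.33, adjusted p = 9.9e-12), and with a pseudocount of 0.1 the difference was -7.36. RA-4d held 6.59, 9.99 and 17.4 FPKM, which overlapped RA-16d. Col26a1 was listed at 0 in all SMC and XEN libraries. Col28a1, known from peripheral nerve, stood at 9.95, 9.54 and 10.9 FPKM in SMC and at no more than 0.0662 FPKM in any other library.

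Counts of called members between the arms are out of the 32 tested. On day 4, 2 members were higher with CHIR (Col1a2 and Col16a1) and 3 lower (Col3a1, Col5a1 and Col26a1), beside 3.34% and 4.28% of the 16508 genes tested. Day 7 had 1 higher and 14 lower, beside 4.06% and 6.61% of all genes. Day 10 had 1 higher and 15 lower, beside 6.35% and 9.07%. With a pseudocount of 0.1, the members called were 15 in place of 5 on day 4 and 25 in place of 16 on day 10. The day 7 differences then became -2.39 for Col8a2, -2.80 for Col6a1, -2.53 for Col6a2, -2.41 for Col2a1, -2.97 for Col14a1 and -3.30 for Col25a1. By day 16 it was 2 higher (Col7a1 and Col20a1) and 20 lower, beside 8.41% and 12.9%. The 20 lower members were 6 fibrillar, 4 network, 3 beaded, 4 FACIT, 2 multiplexin genes and Col26a1, and no transmembrane gene. The class medians of the day 16 difference, over all members whether tested or not, were -1.14 for fibrillar, -1.44 for network, -1.63 for beaded, -3.44 for the 2 multiplexins, -0.57 for FACIT and -0.06 for transmembrane genes, beside -0.005 over all genes tested. With a pseudocount of 0.1 the beaded median was -2.80. Marker sums moved with this comparison: on day 16 the fibroblast list was at 1573 to 1672 FPKM in RA and 83.2 to 91.5 FPKM in RA/CHIR, and the mesothelium list at 287 to 322 and 36.4 to 37.3 FPKM. Most of the mesothelium sum in RA/CHIR was Msln, which, unlike the rest of that list, was higher there (32.6 FPKM) than in RA (21.2 FPKM). The smooth muscle list was at 8979 to 10332 FPKM in RA and 467 to 483 FPKM in RA/CHIR, and the neural list at 20.8 to 29.4 and 6.05 to 6.50 FPKM. Lists higher in RA/CHIR were extra-embryonic endoderm (3138 to 3212 FPKM in RA, 10469 to 10973 FPKM in RA/CHIR), pluripotency (38.5 to 66.3 and 958 to 1002 FPKM) and cartilage (13.95 to 15.8 and 41.1 to 51.5 FPKM), while the endothelium list overlapped. Most of the pluripotency sum in RA/CHIR was Dppa5a, with a mean of 796 FPKM. Nanog, Sox2 and Esrrb averaged 3.27, 3.07 and 4.56 FPKM there, against 377, 223 and 214 FPKM in mES. Most of the cartilage sum was Ihh, with means of 9.05 FPKM in RA and 43.1 FPKM in RA/CHIR. Of the 8 cartilage genes, only Ihh and Sox9 averaged 1 FPKM or more in RA, and only Ihh in RA/CHIR. Sox9 went the other way, with 4.51 and 0.902 FPKM. Endothelium genes also differed in direction: Kdr averaged 22.8 FPKM in RA and 1.69 FPKM in RA/CHIR, and Tek 2.07 and 16.3 FPKM. The part of these cell types in the collagen differences was not tested.

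From day 10 to day 16, the days without inducers, more members were higher than lower in both arms. In RA, 17 members were higher and 3 lower on day 16 than on day 10, beside 7.37% and 1.8% of all genes tested. In RA/CHIR, 12 were higher and 3 lower, beside 8.47% and 6.28%. Col1a2 had the largest step in both, 5.02 ± 0.16 in RA and 5.22 ± 0.16 in RA/CHIR (adjusted p = 6.5e-19 and 1.6e-19). For Col1a1 the steps were 4.18 ± 0.14 and 4.28 ± 0.14. Genes lower on day 16 were Col2a1, Col13a1 and Col18a1 in RA and Col8a1, Col9a2 and Col18a1 in RA/CHIR. Of these, Col18a1 in RA (-1.01) was no longer called without RA-10d replicate 1 (-1.0) or RA-16d replicate 1 (-0.93) or 2 (-0.99), and Col8a1 in RA/CHIR (-1.01) without RA/CHIR-10d replicate 2 (-0.95) or RA/CHIR-16d replicate 2 (-1.0) or 3 (-0.96). Marker sums moved here too: from day 10 to day 16 the fibroblast list went from 78.1 to 79.8 FPKM up to 1573 to 1672 FPKM in RA, and from 19.0 to 20.4 FPKM up to 83.2 to 91.5 FPKM in RA/CHIR. The smooth muscle list went from 1256 to 1274 FPKM on day 10 up to 8979 to 10332 FPKM in RA, and from 113 to 122 FPKM up to 467 to 483 FPKM in RA/CHIR. The extra-embryonic endoderm list was at 1318 to 1344 FPKM on day 10 in RA and 3388 to 3436 FPKM in RA/CHIR, and the mesothelium list at 223 to 234 and 1.87 to 2.62 FPKM, all below their day 16 sums given above. The part of these cell types in the steps was not tested.

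Whether the step differed between the arms was tested with an interaction term, the step in RA/CHIR minus that in RA. For the type I chains it was 0.10 ± 0.20 (95% interval -0.32 to 0.52) for Col1a1 and 0.20 ± 0.23 (-0.28 to 0.67) for Col1a2, so a difference in step of more than 1 lay outside both intervals. The interaction was called positive for 5 members and negative for 9, beside 6.02% and 8.81% of all genes. Positive were Col3a1 (1.57 ± 0.28) and Col5a1 (1.28 ± 0.17), which stepped further in RA/CHIR, Col7a1 (2.79 ± 0.49), whose step was called only there, and Col2a1 and Col13a1, which were lower on day 16 in RA. Negative were Col8a1 (-3.79 ± 0.16), Col8a2 (-1.91 ± 0.22), Col6a2, Col6a3, Col9a2, Col14a1, Col16a1, Col24a1 and Col26a1. The beaded calls depended on the pseudocount: Col6a2 had -2.13 ± 0.15 with 1 and -0.92 with 0.1, Col6a3 -2.06 ± 0.27 and -0.62, and neither was called with 0.1. Col14a1 went from -1.06 to -0.03 and was also lost without replicate 1 or 3 of RA-10d, 2 of RA-16d, 1 of RA/CHIR-10d or 3 of RA/CHIR-16d (-1.0 to -0.92). Col24a1 (-1.01) was lost without replicate 1 or 2 of RA-10d, 1 or 2 of RA-16d or 1 of RA/CHIR-16d (-0.98 to -0.90), under quantile normalization (-0.81) and with the smaller pseudocount. The steps of the arms share no library, but both share their day 16 libraries with the arm comparison of day 16.

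**Figure D5:**
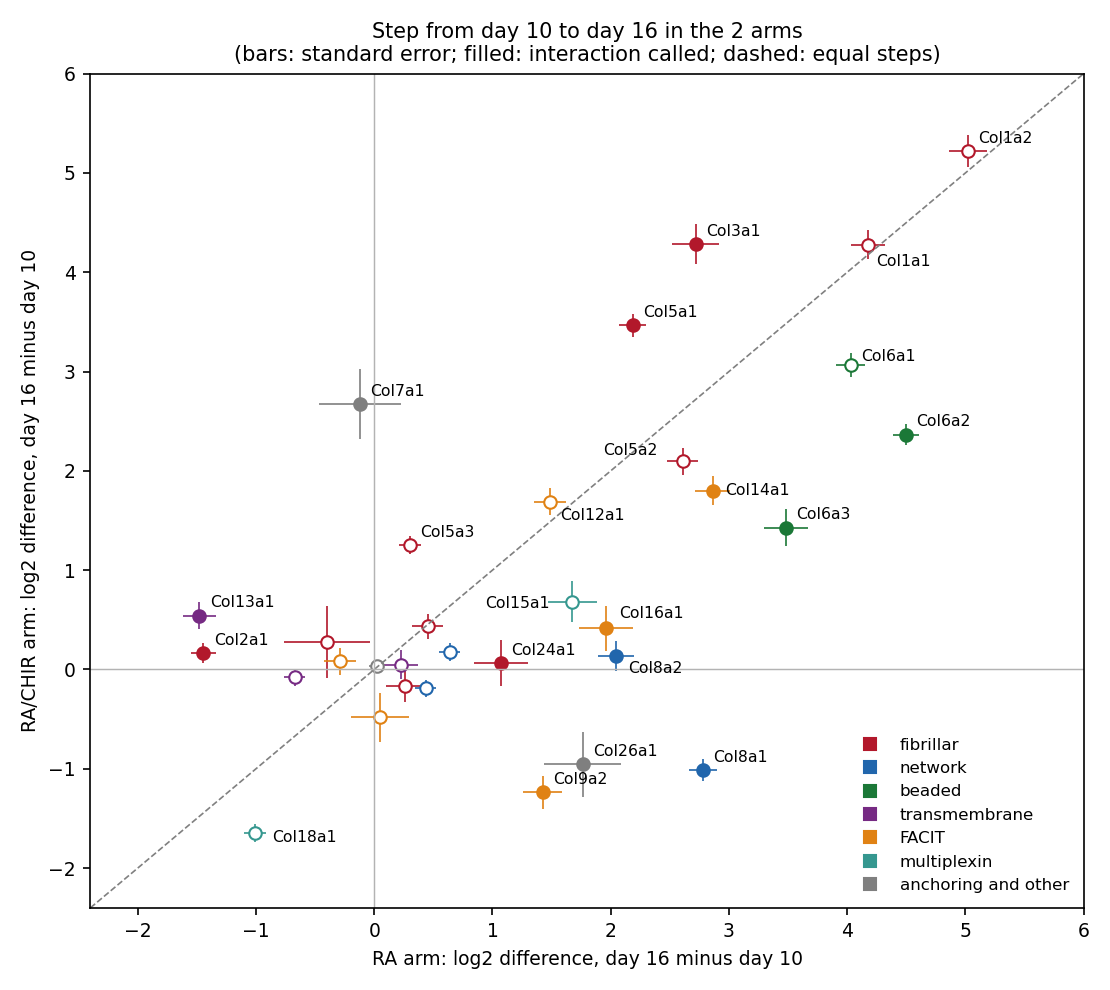
Log2 difference of day 16 minus day 10 in the RA arm (horizontal axis) and the RA/CHIR arm (vertical axis) for the 32 tested collagen genes, coloured by class; bars are standard errors, filled points have a called interaction and the dashed line marks equal steps. Col1a1 and Col1a2 lie on the line, Col3a1, Col5a1 and Col7a1 above it, and Col8a1, Col8a2, Col6a2 and Col6a3 below it.

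Set against mES, RA-4d had 6 of the 32 tested members higher and 3 lower, beside 11.7% and 11.7% of all genes (18 calls in place of 9 with a pseudocount of 0.1), and RA/CHIR-4d 7 higher and 4 lower, beside 9.06% and 9.13%. On day 16, RA had 21 higher and 2 lower, beside 20.4% and 16.3%, and RA/CHIR 16 higher and 3 lower, beside 18% and 18.3%. The 21 were 8 fibrillar, all 4 tested network, all 3 tested beaded and 4 FACIT genes with Col15a1 and Col26a1, led by Col3a1 (7.96 ± 0.20), Col6a2 (6.57 ± 0.11) and Col6a1 (6.44 ± 0.12). The lower genes in RA-16d were Col13a1 (-2.0 ± 0.14) and Col5a3 (-1.01 ± 0.09), the latter lost without mES replicate 1 (-0.95) or RA-16d replicate 1 (-0.89) and with median-of-ratios scaling (-0.94). In RA/CHIR-16d they were Col13a1, Col9a2 and Col18a1 (-2.70 ± 0.09). These comparisons share the mES libraries.

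The reference lines stood far apart. XEN was lower than SMC for 22 members and higher for 2, beside 17.2% and 12.5% of all genes, and the largest differences were those of Col1a2 (-12.07 ± 0.16), Col1a1 (-10.94 ± 0.14) and Col3a1 (-10.50 ± 0.20). Only 5 of 42 members averaged 1 FPKM or more in XEN, Col27a1, Col8a1, Col12a1, Col6a1 and Col23a1, against 23 in SMC. The smooth muscle list summed to 208 to 379.5 FPKM in XEN and 18665 to 19332 FPKM in SMC, and its part in these differences was not tested. RA-16d was lower than SMC for 15 members and higher for 9, beside 10.5% and 15%, and the higher ones included Col8a2, Col26a1, Col9a2 (4.20 ± 0.17, or 6.81 with a pseudocount of 0.1), Col6a1 and Col6a2. Col28a1, counted as lower in both comparisons with SMC, passed the filter only through the SMC libraries, so its calls there add no support. Quantile normalization ended the calls of Col3a1 (-0.49 in place of -1.28), Col4a5 (-0.97), Col13a1 (0.87), Col20a1 (0.74) and Col24a1 (0.52) in that comparison. Median-of-ratios scaling ended that of Col4a6 (-0.97), and Col4a6 (-1.01) was lost without RA-16d replicate 3 (-0.99) and Col24a1 (1.0) without RA-16d replicate 1 (0.94) or 2 (0.90) or SMC replicate 1 (0.94) or 3 (0.99). RA/CHIR-16d was higher than XEN for 18 members and lower for 2, Col27a1 and Col8a1 (-1.85 ± 0.11), beside 14.5% and 8.64%. Of all called genes in that comparison 62.7% were higher, or 52.1% after quantile normalization.

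Genes that modify, cleave, cross-link or bind collagen were followed as 5 lists of 48 genes, 42 of which were tested. Between the arms on day 16, 6 were higher with CHIR and 15 lower, beside 8.41% and 12.9% of all genes tested. The 6 higher were all from the list of proline and lysine hydroxylation in the endoplasmic reticulum: P3h2 (2.52 ± 0.12), P4ha2 (2.07 ± 0.12), Plod3 (1.45 ± 0.07), P4hb (1.05 ± 0.06), Crtap (1.04 ± 0.08) and P4ha1 (1.02 ± 0.05), while P3h3 was lower (-3.06 ± 0.14). P4hb, Crtap and P4ha1 lay close to the threshold of 1, and calls of these lists were not recomputed under other settings. In the lists of extracellular steps, the genes lower with CHIR were 3 of 5 cross-linking enzymes (Loxl1 -4.14 ± 0.08, Loxl3 -2.65 ± 0.23 and Lox -1.94 ± 0.17), 4 of 7 tested propeptide cleavage genes, led by the N-proteinase Adamts2 (-4.02 ± 0.16), and 6 of 8 tested receptor and uptake genes, led by the integrin chain Itga1 (-2.83 ± 0.12) and the uptake receptor Mrc2 (-2.07 ± 0.10). The remaining 2, 3 and 2 genes of these lists were not called. Of the folding and export list, Fkbp10 was lower (-1.07 ± 0.09) and the other 8 tested were not called.

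From day 10 to day 16, 17 of these 42 genes were higher in RA and none was lower, beside 7.37% and 1.8% of all genes tested. In RA/CHIR 14 were higher and 2 lower, beside 8.47% and 6.28%. Lox, the main cross-linking enzyme of type I fibrils, had the largest step in both arms, 5.43 ± 0.17 in RA and 3.96 ± 0.17 in RA/CHIR. Adamts2 stepped by 3.19 ± 0.16 in RA and was not called in RA/CHIR, and its interaction was -2.47 ± 0.22 (adjusted p = 8.5e-10). Plod2, a lysine hydroxylase, stepped by 1.54 ± 0.05 and 2.27 ± 0.05. The 2 lower genes in RA/CHIR were Mrc2 (-1.28 ± 0.10) and Loxl4 (-1.19 ± 0.13). The interaction was called for 10 of the 42, P4ha3 with a positive sign (1.55 ± 0.21) and 9 with a negative sign, 3 of them cross-linking enzymes, beside 6.02% and 8.81% of all genes. XEN was lower than SMC for 22 of the 42 and higher for 3, beside 17.2% and 12.5%, with Lox at -11.13 ± 0.17 and Loxl1 at -8.26 ± 0.08. Of the 5 cross-linking enzymes 4 were lower, whereas Loxl2, not called, averaged 511 FPKM in XEN and 280 FPKM in SMC.

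Members that did not pass the filter were Col4a3, Col4a4, Col10a1, Col6a4, Col6a5, Col6a6, Col17a1, Col9a1, Col19a1 and Col22a1. Col4a3 and Col4a4, the head to head pair that occurs in the kidney filter, stayed at or under 0.429 and 0.162 FPKM. Col10a1, the chain of growing cartilage, was highest in SMC at 0.371, 0.373 and 0.762 FPKM. Exonic overlap with other genes was small for the members, at most 6.07% of exon bases (Col9a3, with Tcfl5 on the other strand). Whether fragments were counted by strand is not given in the sources used here, which leaves fragments on such shared bases uncertain.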

How the data were processed

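The authors deposited FPKM for 52631 genes in 33 libraries. Per the labels' protocols, poly(A) RNA was sequenced as paired reads of 150 bp. Per the submitters' processing notes, Trimmomatic 0.33, HISAT2 2.0.4, Cufflinks, Cuffdiff and the build GRCm38 were used. Parameters are not given in the sources used here.

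From the deposited FPKM, log2(FPKM + 1) was tested with limma 3.58.1 in R 4.3.3: 16508 genes with at least 1 FPKM in at least 3 libraries, 1 model of 11 groups, trended prior variance, 22 residual degrees of freedom, two-sided p-values adjusted by Benjamini-Hochberg over all genes. The pseudocount of 1 shrinks differences of weak genes. On simulated data over 16508 genes, 100% of 200 changed genes were recovered. Recovery of log2 differences near the threshold of 1, or of weakly expressed genes, was not tested. No fragment counts are held, so no count test or counting interval was used. Coordinates come from GENCODE M21. Tables and figures used Python 3.11.15, pandas 2.3.3 and matplotlib 3.10.9.

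The name rule for the members, the classes and the lists were set with earlier results of these data known, although no measured value was part of the rule. All members are named; values by library are given for members with a group mean of at least 20 FPKM and for some others, in the groups compared. Of the pathway lists, called genes with the largest change are named. Alternatives were another scaling, a pseudocount of 0.1, other filters, no variance trend, a replicate block, only the groups compared, and each library left out. Calls were followed under them for the collagen members and not for the pathway lists.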

Additional observations from a re-analysis of the deposited data

Results flagged for a closer look

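The step from day 10 to day 16 differed between the arms for 14 members, by the interaction term of limma (step in RA/CHIR minus step in RA, log2 scale, called as in the results). The fibrillar values were 1.61 for Col2a1, 1.57 for Col3a1, 1.28 for Col5a1 and -1.01 for Col24a1. Network values were -3.79 for Col8a1 and -1.91 for Col8a2, and beaded values -2.13 for Col6a2 and -2.06 for Col6a3. Col13a1, the transmembrane gene, had 2.02. FACIT values were -2.66 for Col9a2, -1.06 for Col14a1 and -1.55 for Col16a1. Col7a1 had 2.79 and Col26a1 -2.71. With a pseudocount of 0.1 the values were 3.79 for Col2a1, 3.16 for Col13a1 and -5.12 for Col26a1. That pseudocount ended the calls of Col6a2 (-0.92), Col6a3 (-0.62), Col14a1 (-0.03) and Col24a1 (-1.63, adjusted p = 0.074).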

How the results depend on the processing

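The total counts of called members, higher and lower together, changed by more than 1.5 times under 1 setting. Counts of higher or of lower members taken alone were not part of this tally. With a pseudocount of 0.1, RA/CHIR-4d against RA-4d had 15 calls in place of 5, RA/CHIR-10d against RA-10d 25 in place of 16, and RA-4d against mES 18 in place of 9. In these 3 cases the smaller pseudocount widens the differences of weakly expressed genes. The other 199 of the total counts recomputed stayed within 1.5 times, and no called value of a member reversed its sign. Of 660 recomputed medians (4 classes and all members), 61 moved by 0.25 or more, 50 of them with the pseudocount of 0.1 and 8 under quantile normalization. Members removed by a stricter filter (5 FPKM in 3 libraries) have no value there. With the replicate number as a replicate block, RA/CHIR-16d against RA-16d again had 22 calls, and the block changed no count of calls. Deviations of same-numbered libraries from their group means were at most weakly correlated, from -0.0763 to 0.109. Such values cannot show whether same-numbered libraries were handled together. Over all comparisons and settings, called members kept their call in 3335 cases and lost it in 50 (11 of them under quantile normalization). Members not called gained a call in 105 cases (60 of them with the pseudocount of 0.1), and those that stayed without one were not counted. No scaling moved the median over all genes by more than 0.1. Depth per value is unknown, and differences between levels under 1 FPKM are compressed by the pseudocount.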
